A study of Homo sapiens with 12 samples.

Results

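Lung epithelial identity and junction genes are described here over 40 genes chosen by name, which mark the epithelium of the lung or hold its cells together. The probes were found by matching the RefSeq accession of each gene probe to the human RefSeq gene table of GRCh38.p14. This gave 55 probes for 39 of the 40 genes, among 41000 gene probes of which 23953 could be named in this way, and the mucin gene MUC5AC had no matched probe. The data are 12 one-colour Agilent 44 k arrays of H358, a cell line from a human lung adenocarcinoma. All arrays come from 1 inducible clone, H358/Tet-On/SRSF2, in which a Tet-responsive promoter drives the splicing factor SRSF2. On 6 arrays, labelled control, the treatment is given as none, and on 6 arrays, labelled SRSF2 over-expression and called SRSF2-labelled arrays here, the clone had received 1 µg/mL doxycycline for 24 hours. The source labels of the control arrays name the 24-hour induction as well. The study's supplement gives 2 arrays for each of 3 labelings in both conditions, so at least part of the spread between arrays is technical. Whether the 3 labelings come from separate cultures is not stated there. The p-values measure the spread between arrays, whatever its source. They take the 6 arrays of a condition as separate replicates, also in the exact permutation tests, unless arrays are said to be averaged.

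The probe of SRSF2 itself, A_23_P77776, ran against the labels. On control arrays its log2 signal was 3.74 to 4.03, and it was 2.29 to 2.56 on the SRSF2-labelled arrays, a log2 fold change of -1.46 (SE 0.06, limma adjusted p = 1.68e-09). Here limma fits a linear model to every probe with a variance moderated across probes, and the p is adjusted over all 24330 probes tested. Whether this probe reads the transcript of the inducible gene or only the endogenous one was not tested. Directions are given throughout as the arrays are labelled. Between 54.2% and 68.0% of gene spots were well above background on the 12 arrays, and none was saturated. The arrays lie on 3 slides, each with 2 arrays of both conditions.

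Lung epithelial cells are made and kept by transcription factors such as NKX2-1, FOXA1 and FOXA2. Alveolar type II cells secrete surfactant, flat alveolar type I cells carry gas exchange, and secretory cells of the airway make secretoglobins and mucins. The cells are joined by E-cadherin (CDH1) at adherens junctions and by claudins and occludin at tight junctions, which the scaffold protein ZO-1 (TJP1) ties to the actin cytoskeleton. The keratins KRT8, KRT18, KRT19 and KRT7 form the filaments of simple epithelium, and the epithelial state is maintained by GRHL2, ELF3, EHF and the splicing regulators ESRP1 and ESRP2.

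RefSeq gives promoter windows (250 bases before to 50 after an annotated start) for 27 of the 40 genes, 44 windows in all. Of these, 5 are printed here on build GRCh38.p14, for the claudin genes and TJP1 whose probes changed and for the lineage factor NKX2-1. They were searched on both strands for 5 short motifs, and the letters found are in capitals. CLDN3 and CLDN4 are neighbours on chromosome 7, with 60.2 kb between their windows. TJP1 has 4 annotated starts, of which the most upstream is shown, and NKX2-1 has 2, of which the downstream one is shown. These are the only windows of TJP1 and NKX2-1 in which a motif was found, and the windows not shown hold none of the 5 motifs.
CLDN3, chr7:73770221-73770520, minus strand: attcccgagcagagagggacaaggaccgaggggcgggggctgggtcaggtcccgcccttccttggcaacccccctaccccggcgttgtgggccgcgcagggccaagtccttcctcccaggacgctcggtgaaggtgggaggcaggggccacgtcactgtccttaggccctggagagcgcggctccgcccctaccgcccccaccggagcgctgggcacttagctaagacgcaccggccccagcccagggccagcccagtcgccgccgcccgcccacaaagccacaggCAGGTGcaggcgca
CLDN4, chr7:73830746-73831045, plus strand: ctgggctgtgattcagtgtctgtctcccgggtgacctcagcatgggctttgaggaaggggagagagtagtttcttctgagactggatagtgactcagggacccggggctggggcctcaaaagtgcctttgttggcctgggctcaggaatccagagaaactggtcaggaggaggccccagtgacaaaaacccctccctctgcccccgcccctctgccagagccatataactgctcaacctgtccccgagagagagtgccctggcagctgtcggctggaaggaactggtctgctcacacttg
CLDN1, chr3:190322397-190322696, minus strand: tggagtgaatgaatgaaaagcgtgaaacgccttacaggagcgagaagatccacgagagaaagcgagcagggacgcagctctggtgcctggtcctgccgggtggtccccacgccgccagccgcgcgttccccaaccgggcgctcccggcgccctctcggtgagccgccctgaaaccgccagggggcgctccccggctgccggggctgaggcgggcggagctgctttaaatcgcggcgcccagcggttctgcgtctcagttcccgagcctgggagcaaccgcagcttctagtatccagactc
TJP1, chr15:29969000-29969299, minus strand: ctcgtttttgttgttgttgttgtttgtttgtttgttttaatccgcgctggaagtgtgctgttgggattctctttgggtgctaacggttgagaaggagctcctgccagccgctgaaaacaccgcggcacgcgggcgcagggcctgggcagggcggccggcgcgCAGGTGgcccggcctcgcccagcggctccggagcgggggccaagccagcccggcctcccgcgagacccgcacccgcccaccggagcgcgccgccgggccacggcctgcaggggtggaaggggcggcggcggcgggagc
NKX2-1, chr14:36519507-36519806, minus strand: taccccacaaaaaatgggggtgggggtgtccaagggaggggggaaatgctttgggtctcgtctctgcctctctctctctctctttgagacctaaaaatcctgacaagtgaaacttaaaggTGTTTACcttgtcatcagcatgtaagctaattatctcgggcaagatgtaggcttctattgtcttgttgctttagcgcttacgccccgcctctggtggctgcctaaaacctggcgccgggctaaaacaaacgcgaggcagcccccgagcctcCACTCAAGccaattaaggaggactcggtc
The capitals mark an E-box (CACCTG, printed as CAGGTG where it lies on the other strand) in the windows of CLDN3 and TJP1. In the NKX2-1 window they mark a forkhead motif (TGTTTAC) and an NKX2-1 motif (CACTCAAG). The windows of CLDN4 and CLDN1 hold none of the 5 motifs, and no motif overlaps another in these windows.

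The E-box, the letters read by the repressors SNAI1 and ZEB1, was present in 17 of the 44 member windows (38.6%) and in 20.6% of all 35116 windows of the table. The forkhead motif was in 3 member windows (6.82%, against 3.42% of all), those of CLDN18, EHF and NKX2-1. The ETS motif CCGGAAGT was in 2 (4.55%, against 4.14%), those of KRT8 and CLDN7. The NKX2-1 motif was in 2 (4.55%, against 0.729%), those of NKX2-1 and FOXA1. The GRHL motif AACCGGTT was in none of the 44, and in 0.134% of all windows. Windows of 1 gene can overlap, and a match is a description of these letters, not a bound site.

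On the control arrays, 42 of the 55 probes were well above background on all 6 arrays and 8 on none. Signals are given as log2 of the background-subtracted intensity minus the array's 75th percentile, so 0 is the signal at that percentile, and the level of one probe is not set against that of another. Of the markers of lung adenocarcinoma, NKX2-1, NAPSA, KRT7, KRT18, EPCAM and CDH1 had at least 1 probe well above background on all 12 arrays. SFTPB, which encodes surfactant protein B, was the exception, with 2 of 6 control arrays and 0 of the other 6 above background. Its control values lay between -5.94 and -4.79 with a median of -5.34. The other values of SFTPB lay between -6.44 and -5.05 with a median of -5.40, and the conditions overlapped.

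The probes of 8 genes with a matched probe were too dim to be tested, since a test needed 5 or more arrays of either condition well above background. Besides SFTPB these were SFTPD (surfactant protein D), ABCA3 (the lipid transporter of lamellar bodies), SCGB3A1 (a secretoglobin), PDPN (podoplanin, an alveolar type I marker), CLDN18 (the lung and stomach claudin), CEACAM5 and CEACAM6 (carcinoembryonic antigen family). SFTPD was above background on 0 control arrays and 3 of the others, and SCGB3A1 on 1 array of each condition. ABCA3, both probes of PDPN, CEACAM5, CEACAM6 and the second probe of the phosphate transporter SLC34A2 were above background on no array. CLDN18 exceeded background on 1 array only, replicate 4 labelled SRSF2 over-expression, at -2.21, where the other 11 arrays lay between -7.71 and -6.08. With SLC34A2 A_23_P133036 and CLDN1 A_24_P165949, 11 of the 55 probes were not tested, which leaves 44 probes of 31 genes.

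Of the 44 member probes tested, 24 passed the limma adjusted p of 0.05 (54.5%), against 57.7% of the 24330 probes tested on these arrays. In detail, 15 rose (34.1%, against 29.7% of all) and 9 fell (20.5%, against 28.0% of all). These shares are near those of all probes, so the count of members called is no result about the group. At a fold change of at least 2 as well, 1 member probe rose (all probes 3.68%) and 1 fell (all probes 3.31%). The 6 arrays of one condition did not overlap the 6 of the other for 12 member probes (27.3%, against 40.2% of all). The median log2 fold change was 0.04 over the members and 0.01 over all probes, and the median size was 0.21 against 0.30.

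**Figure D1:**
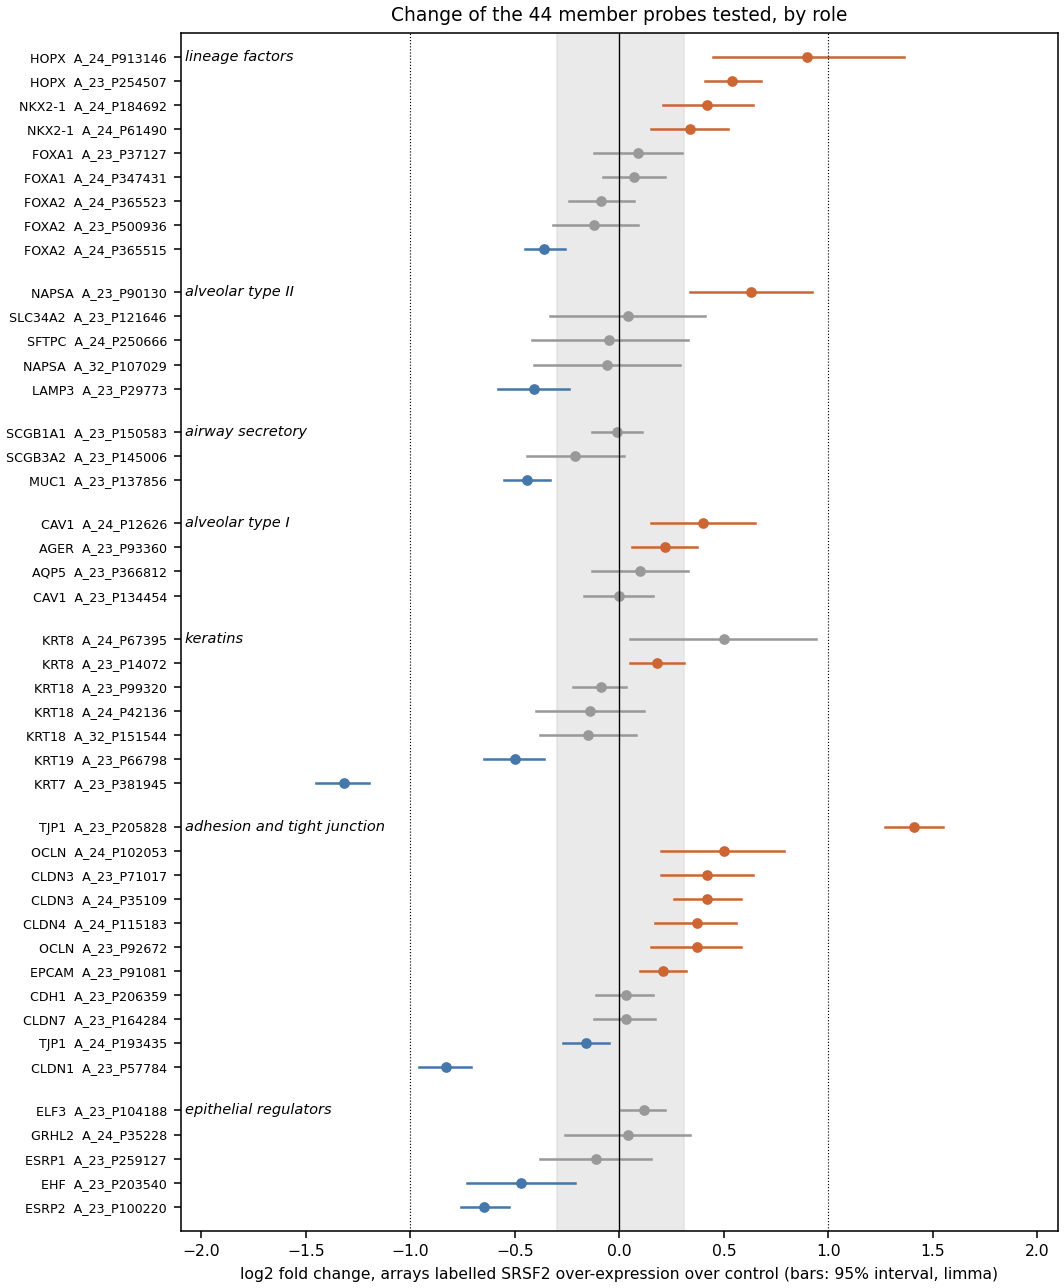
The log2 fold change of the 44 member probes tested (x axis, SRSF2-labelled arrays over control) is plotted by role, with 95% intervals from limma, orange for probes that rose, blue for those that fell and grey for those that did not pass an adjusted p of 0.05. The dotted lines mark 2-fold, which only KRT7 and 1 probe of TJP1 pass, and the grey band holds the middle 50% of all probes tested (-0.30 to 0.31).

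Among the keratins, KRT7 showed the largest fall of the 44 member probes tested. On the control arrays KRT7 (A_23_P381945) lay between 3.37 and 3.54 with a median of 3.47. On the arrays labelled SRSF2 over-expression it lay between 2.01 and 2.26 with a median of 2.15. Every control array was thus above every other array, and the difference was 2.50-fold (log2 fold change -1.32, SE 0.06, limma adjusted p = 1.66e-09, exact permutation p = 0.00216, the smallest that 6 against 6 arrays allow). It was nearly the same on the 3 slides, at -1.33, -1.27 and -1.37. Less of a transcript per cell and fewer cells that carry it cannot be told apart on these arrays. KRT7 had only 1 matched probe, so its fall was not read by a second one. KRT19 (A_23_P66798) went from 8.54 to 8.75 (median 8.72) on the control arrays to 7.97 to 8.30 (median 8.21), again without overlap, a log2 fold change of -0.50 (SE 0.07, limma adjusted p = 2.52e-05).

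KRT8 and KRT18 are a keratin pair that polymerise with each other. KRT8 A_23_P14072 lay between 5.95 and 6.15 (median 6.10) and between 6.15 and 6.36 (median 6.23) on the 5 arrays with a value, a log2 fold change of 0.18 (SE 0.06, limma adjusted p = 0.0217). That call was lost without replicate 3 or replicate 4 labelled SRSF2 over-expression (0.16 in both, limma adjusted p = 0.0523 and 0.0530), and without slide 1 or slide 2 (0.14 in both). Over the 29 alternative settings its adjusted p from limma ranged from 0.00484 to 0.477. The other KRT8 probe, A_24_P67395, lay between -0.35 and 0.55 and between 0.14 and 1.08, with a log2 fold change of 0.50 (limma adjusted p = 0.0547). With the replicate number as a block it passed (limma adjusted p = 4.46e-05, range over the alternatives 5.84e-07 to 0.205). On the means of the 2 arrays per slide with a slide block it passed too (0.50, limma adjusted p = 0.00228). It also passed without control replicate 1 (0.58), control replicate 2 (0.60), replicate 3 (0.57) or replicate 4 (0.56) labelled SRSF2 over-expression, or slide 1 (0.48).

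KRT18 was measured by 3 probes, none of which passed in the fit without a block. The values of A_23_P99320 lay between 6.51 and 6.68 (median 6.55) and between 6.35 and 6.60 (median 6.49), a log2 fold change of -0.09 (95% interval -0.22 to 0.03). The other KRT18 probes gave -0.14 (-0.40 to 0.12) and -0.15 (-0.38 to 0.08), each with 1 array missing. With the replicate block these passed (A_24_P42136 at -0.19, limma adjusted p = 0.0290, range over the alternatives 0.00395 to 0.910, and A_32_P151544 at -0.18, limma adjusted p = 0.0291, range 0.00435 to 0.978), and A_32_P151544 also passed without slide 1 (-0.22). With slide as a block A_23_P99320 passed too (-0.09, limma adjusted p = 0.0311). On the means of the 2 arrays per slide with a slide block no KRT18 probe passed (limma adjusted p = 0.316 for A_23_P99320, 0.103 for A_24_P42136 and 0.0829 for A_32_P151544). With the spike-in control probes setting the scale of each array in place of its 75th percentile (spike-in scaling), all 3 KRT18 probes turned to 0.10 to 0.12. KRT8 and KRT18 have many processed pseudogenes, and whether the probes bind their transcripts was not tested.

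**Figure D2:**
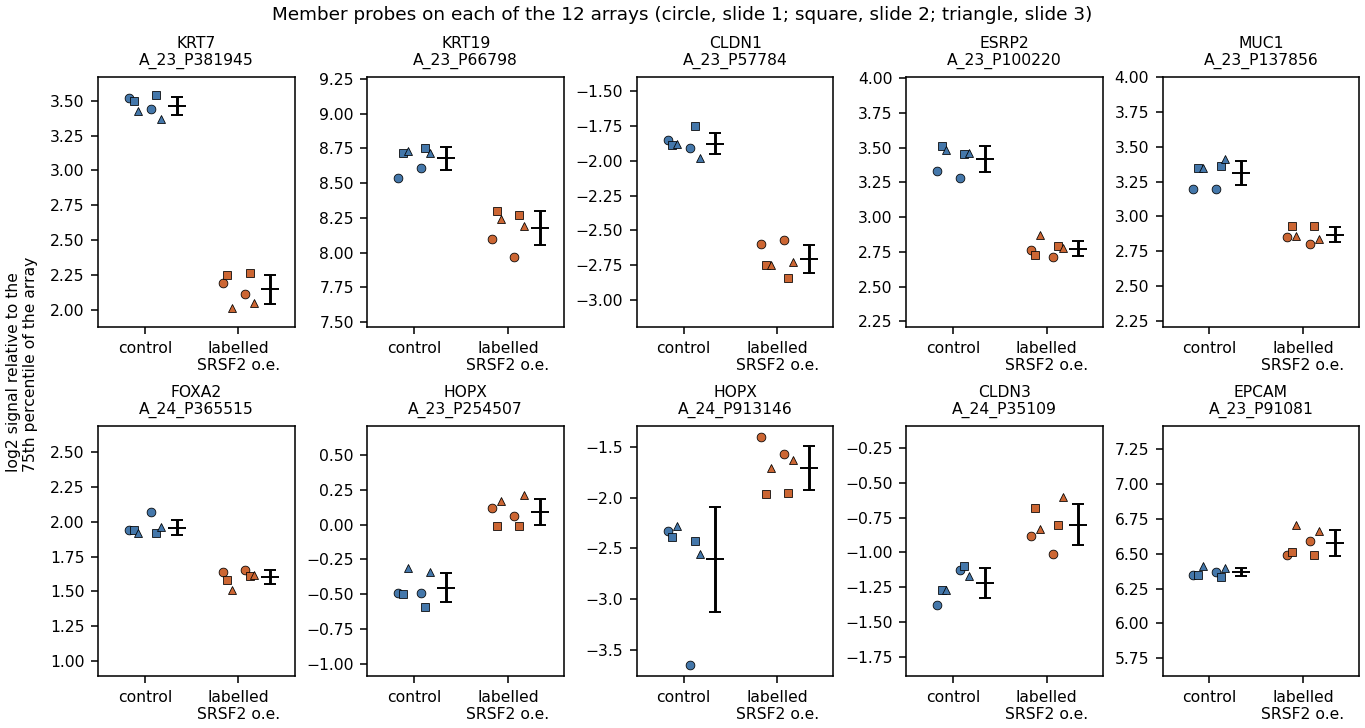
The log2 signal (y axis, relative to each array's 75th percentile) is shown for 10 probes of 9 member genes on each array, control in blue and SRSF2-labelled arrays in orange, with symbols for the slides and the mean ± SD of 6 arrays at the right of each group. The 10 probes are among the 12 tested member probes whose conditions do not overlap (27.3%, against 40.2% of all probes). The lack of overlap in the panels thus comes with their choice. For KRT7 the control arrays sit between 3.37 and 3.54 and the others between 2.01 and 2.26.

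Of the 11 adhesion and tight junction probes tested, 7 rose (63.6%, against 29.7% of all probes), 2 fell (18.2%, against 28.0%) and 2 did not pass, and their median log2 fold change was 0.37 (0.01 over all probes). By gene, with the brightest probe standing for each, 5 of 8 rose and 1 fell. Under the normexp background correction, only TJP1 A_23_P205828 and CLDN3 A_23_P71017 of these rises still passed. EPCAM, CLDN4 and OCLN A_24_P102053 did not pass with the 2 arrays of a condition per slide averaged. The largest rise of the 44 member probes was that of TJP1, the gene of ZO-1. The signal of TJP1 A_23_P205828 lay between 1.22 and 1.42 (median 1.32) on the control arrays and between 2.59 and 2.91 (median 2.69) on the SRSF2-labelled arrays. The groups were more than a full log2 unit apart, 2.66-fold (log2 fold change 1.41, SE 0.07, limma adjusted p = 3.22e-09, exact permutation p = 0.00216), and the slides gave 1.40, 1.31 and 1.52.

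The other TJP1 probe, A_24_P193435, is assigned to the same RefSeq transcript and did not rise. Its values lay between 1.63 and 1.91 (median 1.78) on the control arrays and between 1.57 and 1.63 (median 1.62) on the others, meeting at 1.63. The log2 fold change was -0.16 (SE 0.05, limma adjusted p = 0.0200), and it turned to 0.05 under spike-in scaling. That call was also lost without slide 2 (-0.14, limma adjusted p = 0.0908) or slide 3 (-0.18, limma adjusted p = 0.0666), and the adjusted p ranged from 0.00811 to 0.892 over the alternatives. The difference between the 2 TJP1 probes went from -0.46 ± 0.09 (SD, n = 6) to 1.11 ± 0.11 (SD, n = 6) on the log2 scale, a shift of 1.57. Its exact permutation p was 0.00216, not adjusted over the 15 probe pairs of 11 member genes compared in this way, a test chosen after the values were seen.

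**Figure D3:**
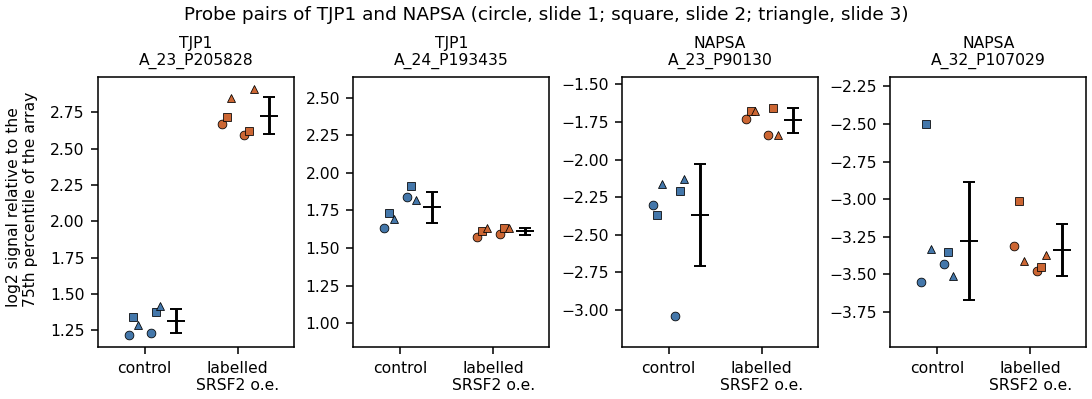
The log2 signal (y axis, relative to each array's 75th percentile) is shown by array for both tested probes of TJP1 and of NAPSA, with symbols for the slides and the mean ± SD of 6 arrays at the right of each group. TJP1 A_23_P205828 rises from at most 1.42 to at least 2.59 while TJP1 A_24_P193435 stays between 1.57 and 1.91, and NAPSA A_23_P90130 rises while NAPSA A_32_P107029 overlaps between the conditions.

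Claudins, the proteins that set the permeability of tight junctions, moved in both directions. CLDN1 (A_23_P57784) fell, from between -1.98 and -1.75 (median -1.88) on the control arrays to between -2.84 and -2.57 (median -2.74). No values overlapped, and the log2 fold change was -0.83 (SE 0.06, limma adjusted p = 1.03e-07), with -0.71, -0.98 and -0.81 on the slides. The second CLDN1 probe, A_24_P165949, lay the other way, between -5.45 and -4.75 and between -4.74 and -4.16, but was well above background on only 2 and 3 arrays and was not tested.

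CLDN3 and CLDN4, which are neighbours on chromosome 7, rose by like amounts. CLDN3 A_24_P35109 went from between -1.38 and -1.10 (median -1.22) to between -1.01 and -0.60 (median -0.82), without overlap, a log2 fold change of 0.42 (SE 0.07, limma adjusted p = 0.000339). CLDN3 A_23_P71017 also gave 0.42 (SE 0.10, limma adjusted p = 0.00332), with 0.36 without slide 3 and an adjusted p there of 0.0567, the highest over the alternatives (lowest 5.82e-05). CLDN4 (A_24_P115183) went from between 2.72 and 2.93 (median 2.81) to between 2.93 and 3.43 (median 3.16), so that the groups met at 1 value, and its log2 fold change was 0.37 (SE 0.09, limma adjusted p = 0.00329). CLDN7 gave 0.03 (95% interval -0.12 to 0.17) and did not pass.

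Occludin, the transmembrane partner of the claudins, rose on both of its probes. OCLN A_24_P102053 lay between -4.05 and -3.30 (median -3.63) on the control arrays and between -3.47 and -2.79 (median -3.10) on the others, with overlap, a log2 fold change of 0.50 (SE 0.14, limma adjusted p = 0.00765). OCLN A_23_P92672 gave 0.37 (SE 0.10, limma adjusted p = 0.00691). Neither passed without slide 3 (A_24_P102053 at 0.47, limma adjusted p = 0.0943, and A_23_P92672 at 0.35, limma adjusted p = 0.0796). Over the alternatives their adjusted p ranged from 1.93e-05 to 0.817 and from 0.00367 to 0.996. With normexp, another background correction, they gave -0.21 and -0.0029, so the direction of OCLN changed with the background correction.

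EPCAM, an adhesion molecule of nearly all simple epithelia, rose slightly. Its values lay between 6.33 and 6.41 (median 6.36) on the control arrays and between 6.49 and 6.71 (median 6.55) on the others, without overlap, a log2 fold change of 0.21 (SE 0.05, limma adjusted p = 0.00336). That call was lost in 6 of the 29 alternatives, among them quantile normalization (limma adjusted p = 0.0540), no background subtraction (0.0981) and means of the 2 arrays per slide with a slide block (0.0521), and its adjusted p from limma ranged from 0.000208 to 0.415. CDH1 lay between 4.88 and 5.10 (median 4.92) and between 4.82 and 5.11 (median 5.01). Its log2 fold change of 0.03 did not pass, with a 95% interval from -0.11 to 0.16.

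**Figure D4:**
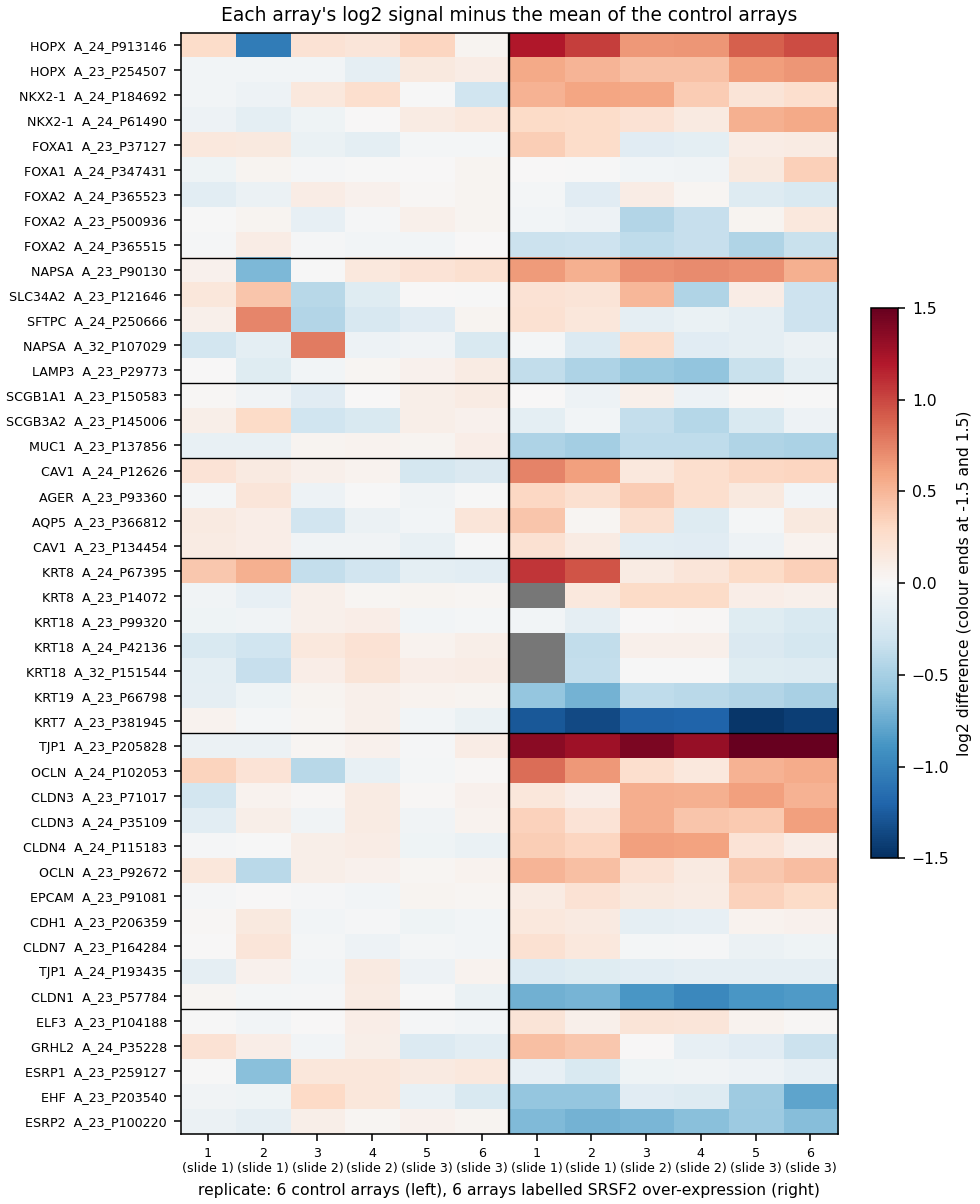
Each row is 1 of the 44 member probes tested, grouped by role, and each column 1 array, control at the left and labelled SRSF2 over-expression at the right. The colour is the log2 signal of the array minus the mean of the control arrays (red higher, blue lower, grey missing), and it shows KRT7 and CLDN1 lower and TJP1 A_23_P205828 higher on all 6 arrays at the right, while the 3 probes of KRT18 and the probe of CDH1 stay near 0.

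The regulators of the epithelial state gave 2 falls (28.0% of all probes fell), 0 rises (29.7% of all rose) and 3 probes that did not pass. ESRP2, which steers epithelial splicing patterns, lay between 3.28 and 3.51 (median 3.46) on the control arrays and between 2.71 and 2.87 (median 2.77) on the others. The ESRP2 groups did not overlap, and the log2 fold change was -0.65 (SE 0.05, limma adjusted p = 3.79e-07). ESRP2 did not pass under spike-in scaling (-0.44, limma adjusted p = 0.149) or with normexp (-0.47, limma adjusted p = 0.142). Its paralogue ESRP1 gave -0.11 (95% interval -0.38 to 0.15) over all arrays. Without control replicate 2, which lay at -0.53 where the other control arrays lay at 0.09 or above, ESRP1 passed at -0.24 (limma adjusted p = 0.00173), and without slide 1 it passed at the same value. Its adjusted p ranged from 0.00159 to 0.963 over the alternatives.

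EHF, an epithelial ETS factor, lay between -2.11 and -1.59 (median -1.95) and between -2.67 and -2.05 (median -2.44), with a small overlap. Its log2 fold change was -0.47 (SE 0.12, limma adjusted p = 0.00444), and without slide 1 it was -0.45 (limma adjusted p = 0.0546, range over the alternatives 5.77e-06 to 0.392). ELF3, another ETS factor of epithelia, gave 0.12 (limma adjusted p = 0.0544). It passed with the replicate block (limma adjusted p = 0.0277, range over the alternatives 0.00845 to 0.598) but not on the means of the 2 arrays per slide with a slide block (limma adjusted p = 0.199). It also passed without control replicate 4 (0.14) or without replicate 5 (0.13) or 6 (0.14) labelled SRSF2 over-expression. GRHL2, a factor that binds at junction genes, gave 0.04 (95% interval -0.26 to 0.34).

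Among the 4 lineage factors, 4 of 9 probes rose (29.7% of all probes), 1 fell (28.0% of all) and 4 did not pass. Both probes of HOPX, an atypical homeodomain protein of alveolar type I cells, rose. HOPX A_23_P254507 lay between -0.59 and -0.31 (median -0.49) on the control arrays and between -0.01 and 0.21 (median 0.09) on the others, a log2 fold change of 0.54 (SE 0.06, limma adjusted p = 7.86e-06). HOPX A_24_P913146 lay between -3.65 and -2.28 (median -2.41) and between -1.96 and -1.40 (median -1.67), a log2 fold change of 0.90 (SE 0.21, limma adjusted p = 0.00247). For both probes the conditions did not overlap.

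NKX2-1, the master factor of lung epithelium, rose on both of its probes. NKX2-1 A_24_P61490 lay between 2.19 and 2.50 (median 2.31) and between 2.47 and 2.91 (median 2.61), a log2 fold change of 0.34 (SE 0.09, limma adjusted p = 0.00489). NKX2-1 A_24_P184692 lay between -3.02 and -2.47 (median -2.75) and between -2.53 and -2.14 (median -2.27), a log2 fold change of 0.42 (SE 0.10, limma adjusted p = 0.00283). The ranges overlapped slightly in both. The change of A_24_P184692 was 0.32 without slide 1 (limma adjusted p = 0.0713, range over the alternatives 0.000280 to 0.924) and turned to -0.06 with normexp.

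FOXA2, a forkhead pioneer factor, was read by 3 probes. The values of A_24_P365515 lay between 1.92 and 2.07 (median 1.94) on the control arrays and between 1.51 and 1.65 (median 1.61) on the others, without overlap, a log2 fold change of -0.36 (SE 0.04, limma adjusted p = 1.76e-05). FOXA2 A_23_P500936 gave -0.12 (95% interval -0.32 to 0.09) and A_24_P365523 gave -0.09 (-0.24 to 0.07), and both turned positive under spike-in scaling (0.09 and 0.12). A_24_P365515 and A_24_P365523 differed in their change by -0.27 on the log2 scale (exact permutation p = 0.00649, one of the 15 pairs and not adjusted over them). The probes of FOXA1 gave 0.09 (-0.12 to 0.30) and 0.07 (-0.08 to 0.22).

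The alveolar type II genes gave 1 rise and 1 fall in 5 probes tested, where 29.7% of all probes rose and 28.0% fell. NAPSA, the aspartic protease that processes surfactant protein B, was read differently by its 2 probes. NAPSA A_23_P90130 lay between -3.04 and -2.13 (median -2.26) and between -1.84 and -1.66 (median -1.71), without overlap, a log2 fold change of 0.63 (SE 0.13, limma adjusted p = 0.00125). NAPSA A_32_P107029 lay between -3.55 and -2.50 (median -3.39) and between -3.48 and -3.01 (median -3.39), a log2 fold change of -0.06 (95% interval -0.41 to 0.29). The 2 NAPSA probes moved apart by 0.69 (exact permutation p = 0.00433, one of the 15 pairs named above and not adjusted over them).

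LAMP3, a lysosomal protein of lamellar bodies, lay between -1.40 and -1.10 (median -1.21) and between -1.81 and -1.37 (median -1.63), a log2 fold change of -0.41 (SE 0.08, limma adjusted p = 0.000656). SFTPC, the surfactant protein restricted to alveolar type II cells, had 12 arrays well above background. The log2 fold change was -0.05 with a wide 95% interval, from -0.42 to 0.33, as was that of SLC34A2 A_23_P121646 at 0.04 (-0.33 to 0.41).

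Of the 4 alveolar type I probes tested, 2 rose (29.7% of all probes) and 0 fell (28.0% of all). CAV1, the coat protein of caveolae, again differed between its probes. CAV1 A_24_P12626 lay between 3.16 and 3.63 (median 3.49) and between 3.58 and 4.17 (median 3.73), a log2 fold change of 0.40 (SE 0.12, limma adjusted p = 0.00998), which was 0.32 without slide 3 (limma adjusted p = 0.0825, range over the alternatives 0.000311 to 0.346). CAV1 A_23_P134454 had a 95% interval from -0.17 to 0.16. The difference of this probe minus A_24_P12626 narrowed from 1.38 to 0.98 on the log2 scale. That shift was -0.40 (exact permutation p = 0.00216, also not adjusted over the 15 pairs). AGER, the receptor for advanced glycation end products, lay between -1.49 and -1.24 (median -1.44) and between -1.46 and -1.04 (median -1.17). The AGER log2 fold change of 0.22 (SE 0.07, limma adjusted p = 0.0217) did not pass without slide 1 (0.22, limma adjusted p = 0.0614) or slide 2 (0.14, limma adjusted p = 0.205, range over the alternatives 0.00281 to 0.989). The water channel AQP5 gave 0.10 (95% interval -0.13 to 0.33).

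Among the secretory genes of the airway, MUC1, a membrane mucin, fell. Its values lay between 3.20 and 3.41 (median 3.35) on the control arrays and between 2.80 and 2.93 (median 2.86) on the others, without overlap, a log2 fold change of -0.44 (SE 0.05, limma adjusted p = 1.01e-05). The secretoglobin SCGB1A1, the club cell marker, gave -0.01 (95% interval -0.13 to 0.11). SCGB3A2 gave -0.21 (-0.44 to 0.02) and passed with the replicate block (limma adjusted p = 0.00579, range over the alternatives 0.00250 to 0.996), without control replicate 3 (-0.27) and without slide 2 (-0.25). On the means of the 2 arrays per slide with a slide block it did not pass (limma adjusted p = 0.0524).

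The members differed in how far their changes depended on the processing. KRT7, TJP1 A_23_P205828 and HOPX A_23_P254507 kept their direction and passed in all 29 alternative settings, with log2 fold changes from -1.35 to -1.09, from 1.36 to 1.62 and from 0.48 to 0.75. Scaling on 7 spike-in probes moved the median of all probes from 0.01 to 0.22 and gave 11 member probes up and 2 down (KRT7 and CLDN1), in place of 15 and 9. Of all probes, 20.7% rose and 6.15% fell under that scaling. With normexp 3 member probes rose (5.80% of all) and 1 fell (5.79% of all), namely KRT7, TJP1 A_23_P205828, HOPX A_23_P254507 and CLDN3 A_23_P71017. The calls of KRT19, ESRP2, MUC1, LAMP3 and FOXA2 A_24_P365515 were among those lost both under spike-in scaling and with normexp. With the 2 arrays of a condition on each slide averaged to 1 replicate, 8 rose (19.8% of all) and 7 fell (19.2% of all). The calls lost there were those of NKX2-1 A_24_P61490, AGER, CAV1 A_24_P12626, KRT8 A_23_P14072, EPCAM, CLDN4, OCLN A_24_P102053, TJP1 A_24_P193435 and EHF.

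A wider set of 82 genes of the same programmes was read in the same fit, and 77 probes of 57 of these genes were tested. Of these probes, 27 rose (35.1%, against 29.7% of all), 11 fell (14.3%, against 28.0%) and 39 did not pass, and their median log2 fold change was 0.06. With the replicate block 31 rose and 18 fell, and of all probes 34.1% rose and 31.7% fell. The 44 junction probes gave 17 rises and 7 falls, the 21 probes of epithelial identity 7 and 1, and the 12 probes of lung lineage 3 and 3.

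The 3 largest rises in the wider set were all of probes of junction genes. PATJ, a scaffold of the Crumbs polarity complex at tight junctions, was read by 5 probes assigned to the same transcript, of which A_23_P126100 rose. Its mean signal was -4.18 in the control condition and -2.32 in the other, a difference of 1.86 (SE 0.11, limma adjusted p = 2.54e-08). The signal exceeded background clearly on 4 of the control and all 6 of the SRSF2-labelled arrays, so this probe entered the test through the condition where it was high. The other PATJ probes gave -0.31, -0.48, -0.40 and -0.18 and did not pass (limma adjusted p = 0.0606, 0.0599, 0.0527 and 0.501). CTNNB1 A_23_P29499, a probe of beta-catenin, went from -0.97 to 0.37, a log2 fold change of 1.34 (limma adjusted p = 3.43e-06), and the other CTNNB1 probe, A_23_P29495, gave 0.63. The claudin CLDN15 went from -3.87 to -2.62, a log2 fold change of 1.25 (limma adjusted p = 1.33e-06).

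The 3 largest falls among the wider genes were those of ETV5, MARVELD3 and NECTIN2. ETV5, an ETS factor of the developing lung tip, fell on both probes, by -1.48 for A_23_P9836 (limma adjusted p = 3.49e-05) and -1.10 for A_32_P30649 (limma adjusted p = 1.85e-06). MARVELD3 A_23_P376372, a probe of a tight junction protein related to occludin, gave -1.16 (limma adjusted p = 3.89e-05), and its other probe A_23_P152428 gave 0.53 (limma adjusted p = 0.0124). The nectin NECTIN2 had the same split, with -1.16 for A_23_P208293 (limma adjusted p = 3.97e-09) and 0.62 for A_23_P352870 (limma adjusted p = 0.00120). In MARVELD3 and in NECTIN2 the 2 probes are assigned to different RefSeq transcripts of the gene.

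**Figure D5:**
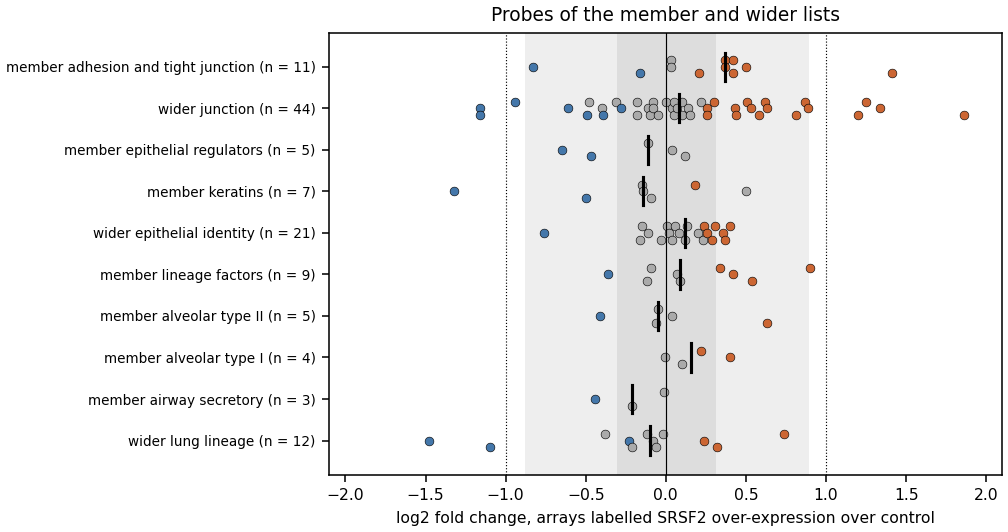
The log2 fold change (x axis, SRSF2-labelled arrays over control) of each tested probe is plotted by list, members and wider genes, with orange for rises, blue for falls, grey for probes that did not pass and a black bar for the median. The grey bands hold the middle 50% (-0.30 to 0.31) and 90% (-0.87 to 0.89) of all probes, and the median of the member junction probes (0.37) lies just outside the inner band and that of the wider junction probes (0.08) inside it.

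Markers of other cell types were read on the same arrays. None of the 9 fibroblast probes, which include COL1A2, COL3A1, DCN and PDGFRB, was well above background on any array, and their summed signal relative to the 75th percentile, on a linear scale, ranged from 0.0571 to 0.156 on the control arrays and from 0.0547 to 0.161 on the others. Of the 7 basal or squamous probes, those of TP63 (A_23_P327380), KRT14 and KRT6A were above background and KRT5 and DSG3 were not on any control array, and 0 of 4 tested passed. Their summed signal ranged from 4.14 to 5.04 and from 3.93 to 4.82. Of the neuroendocrine markers reported here CHGA and 1 INSM1 probe were above background and SYP and NEUROD1 on no array, the 2 tested probes did not pass, and the sums ranged from 0.240 to 0.282 and from 0.195 to 0.250. Of the blood markers reported here PTPRC, LYZ and HBB were above background on no array, and the log2 fold changes of the 2 tested probes were -0.03 (CD3E) and 0.20 (CD14), neither past the test. The blood sums ranged from 0.264 to 0.312 and from 0.251 to 0.338. Of the endothelial markers CDH5, KDR and TEK were on no array above background, and the 2 tested probes passed in opposite directions (PECAM1 -0.46, VWF 0.31). The endothelial sums ranged from 0.233 to 0.340 and from 0.209 to 0.375.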

How the data were processed

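The 12 arrays carry the Agilent Whole Human Genome 44 k design. The authors deposited the output of Agilent Feature Extraction 10.7.3.1 for each array, with the background-subtracted intensity of every spot, its median and local background intensity and its flags, and a table of log2 values, which was used as an alternative only. Annotation in the files is of build hg18, so no probe coordinates are given. Groups come from the labels.

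From the deposited intensities, outlier spots were left out, log2 values of the spots of a probe were averaged, and the 75th percentile of the array was subtracted. Probes entered the test if no more than 25% of their arrays were missing and if, in either condition, 5 or more of the 6 arrays were well above background. The test was limma 3.58.1 in R 4.3.3 (lmFit, eBayes), with no covariates and Benjamini-Hochberg adjustment over 24330 probes. The fit was tried on simulated data with independent noise on each array, so it was not tested under deviations shared by the arrays of a slide. Exact permutation tests, two-sided, used the 924 arrangements of 6 against 6 arrays in Python 3.11.15. The members and the gene lists were chosen with earlier results of these data known. Some markers of the neuroendocrine and blood lists are not reported here, and their counts and sums leave those markers out.

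Named with full values are the member probes past 2-fold, up to 2 each way with the largest change in each role, and the markers NKX2-1, SFTPB, NAPSA, EPCAM, CDH1, KRT7 and KRT18; of the wider lists, up to 3 genes each way. Other genes were named after their values were seen. Arrays with the same replicate number in both conditions deviated together from their group means (r from 0.277 to 0.639 over 6 pairs), as did the other arrays of a slide (0.327 to 0.655), but arrays from separate slides had r from -0.477 to -0.047. Numbers thus pair the arrays by slide.

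The 29 alternative settings were median, quantile and spike-in scaling, normexp (offset 50), signals with no background removed, the log2 table of the authors, both no filter and a stricter one (9 of 12 arrays), outlier spots left in, slide or replicate blocks, the methods' t-test, means of 2 arrays with and without slide as a block, and each array and each slide left out. A 1.5-fold threshold was also tried. The mean spot intensity is not among the columns used here, and the median stood in for it where raw spot signals were needed. The number of arrays limits the precision.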

Additional observations from a re-analysis of the deposited data

Results flagged for a closer look

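For 11 member probe groups, out of 85 groups of 6 arrays tested, 1 array lay far from the other 5, with a gap to the nearest of them above the 95% limit of Dixon's test. Chance flags about 1 in 20 groups. In 7 of the 11 the array was control replicate 2. It lay at 2.07 for FOXA2 A_24_P365515 (the other control arrays 1.92 to 1.96), -3.04 for NAPSA A_23_P90130 (-2.37 to -2.13), -1.24 for AGER (-1.49 to -1.43), -3.65 for HOPX A_24_P913146 (-2.56 to -2.28), 3.03 for CLDN7 (2.78 to 2.86), -2.86 for OCLN A_23_P92672 (-2.42 to -2.28) and -0.53 for ESRP1 (0.09 to 0.26).

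NAPSA A_32_P107029 stood apart in both conditions on replicate 3, at -2.50 on the control array (the others -3.55 to -3.33) and at -3.01 on the array labelled SRSF2 over-expression (-3.48 to -3.31). CLDN3 A_23_P71017 lay at 0.35 on control replicate 1 (the others 0.64 to 0.75), and ELF3 at 2.61 on control replicate 4 (2.47 to 2.52).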

How the results depend on the processing

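The direction and call of KRT7, TJP1 A_23_P205828 and HOPX A_23_P254507 held in all 29 alternatives, while most other calls were lost under spike-in scaling or normexp. Scaling on spike-in probes gave 11 member probes up and 2 down, with 2 up and 1 down at 2-fold and a median of 0.24, and in the wider lists 16 up and 5 down, with 7 and 1 at 2-fold and a median of 0.27. It called 5031 of all 24330 probes up and 1497 down, 1601 and 430 at 2-fold. It turned FOXA2 A_23_P500936 (0.09) and A_24_P365523 (0.12), SFTPC (0.16), NAPSA A_32_P107029 (0.15), SCGB1A1 (0.20), CAV1 A_23_P134454 (0.21), the KRT18 probes (0.12, 0.10 and 0.10), TJP1 A_24_P193435 (0.05) and ESRP1 (0.10). Normexp moved the median of all probes from 0.01 to -0.10 and gave 3 member probes up and 1 down, and in the wider lists 3 and 3, with 0 and 0 at 2-fold. It called 1410 of all 24330 probes up and 1409 down, 158 and 170 at 2-fold. It turned NKX2-1 A_24_P184692 (-0.06), FOXA2 A_23_P500936 (0.01), SLC34A2 (-0.34), AQP5 (-0.21), AGER (-0.01), CAV1 A_23_P134454 (0.13), KRT18 A_23_P99320 (0.03), OCLN (-0.0029 and -0.21) and GRHL2 (-0.09). Without background subtraction 2 wider probes rose and 1 fell at 2-fold (422 and 376 of all 24330 probes), and SFTPC (0.02), NAPSA A_32_P107029 (0.00026) and GRHL2 (-0.01) turned. Quantile normalization turned CAV1 A_23_P134454 (0.04). With means of 2 arrays 8 member probes rose (19.8% of all probes did). In the wider lists 20 probes fell with slide as a block and 18 with the replicate block (8241 and 7707 of all 24330 probes). The replicate block changed the call of 5 member probes, each given in the report, and of no other. At 1.5-fold 3 member probes rose and 3 fell, and in the wider lists 10 and 7, and the share of all probes at 1.5-fold was not counted. Without any 1 array or slide, 1 to 2 member probes rose at 2-fold (2 without slide 2, where 1010 of all 24330 probes rose). Single arrays or slides left out took FOXA1 A_24_P347431 from -0.01 to 0.12, SFTPC from -0.18 to 0.10, NAPSA A_32_P107029 from -0.14 to 0.09, SLC34A2 from -0.10 to 0.14, SCGB1A1 from -0.06 to 0.03, CAV1 A_23_P134454 from -0.05 to 0.05, CDH1 from -0.02 to 0.09, CLDN7 from -0.01 to 0.06 and GRHL2 from -0.07 to 0.11, none of them called. The cause of these changes was not tested. Dim signals limit the probes at and near background.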
